A study of Rattus norvegicus with 20 samples.

Results

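The genes described here make and break down heme. They are Alas1, Alas2, Alad and Urod on the synthesis side, and Hmox1, Hmox2 and Blvra on the breakdown side. The members were all probe sets whose only gene symbol in the platform annotation was one of these 7 symbols, out of 4737 genes that had such a probe set. There were 10 of these probe sets, because Alas1, Hmox1 and Hmox2 each had a pair. The genes were chosen by the diabetic against normal difference of Alas1 and by pathway, so that comparison is given for these genes as values only, with no test.

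Rear-leg muscle of rats was measured in 4 groups of 5 arrays: diabetic rats treated with vanadyl sulfate, untreated diabetic rats, normal rats treated with vanadyl sulfate, and untreated normal rats. Vanadyl sulfate is a vanadium salt with insulin-like actions. Poly(A) RNA was isolated from the muscle and labelled with biotin for one-colour arrays. The sources used here do not give the way diabetes was produced, the muscle taken, the strain, sex and age of the rats, or the dose and duration of vanadyl sulfate. The labels do not say whether replicates were separate animals, and the p-values then measure only how these samples spread, which may be technical.

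Heme is an iron-holding ring that carries oxygen in hemoglobin and myoglobin and electrons in the cytochromes of the respiratory chain. In muscle, the mitochondrial enzyme ALAS1 begins its synthesis and sets the rate of the pathway, whereas ALAS2 does the same step in developing red cells. ALAD and UROD act later in the pathway. The heme oxygenases HMOX1, which many stresses induce, and HMOX2, which is made constitutively, open the ring and release iron and carbon monoxide, and BLVRA reduces the product biliverdin to bilirubin.

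Each value is a MAS5 signal, a linear intensity that the authors had scaled so that all arrays have nearly the same trimmed mean. Group differences are on the log2(signal + 16) scale, from limma fitted to all 20 arrays, with adjusted p by the Benjamini-Hochberg method over 6027 tested probe sets and a threshold of 0.05. Testing required a signal above the 40th percentile of the array on 5 or more of 20 arrays, which all 10 member probe sets met. Levels of different probe sets are not comparable, so each is set only against itself. Array medians ran from 378.7 to 651.35, and correlations between arrays ran from 0.683 to 0.968. RNA integrity, read as the log2 3'/5' ratio of the Gapdh control probe sets, was uneven: it spanned 0.13 to 3.94 on treated diabetic arrays, 0.21 to 1.11 on diabetic, -0.0038 to 0.68 on treated normal and 0.025 to 2.91 on normal arrays. This ratio was high, which marks less intact RNA, in treated diabetic replicate 1 and normal replicates 1 and 3. All 11 measured skeletal muscle markers passed the filter, with a summed signal of at least 661604.8 on every array. None of them passed limma's threshold in the 4 comparisons tested for the heme genes. At an unadjusted p under 0.05 there were 6 of 11 in treated diabetic against treated normal muscle, beside 17.9% of all probe sets. There were 3 in treated against untreated diabetic muscle (beside 16.3%), 2 in treated against untreated normal muscle (9.23%) and 8 for the interaction (13.3%). In treated diabetic against treated normal muscle, 9 were positive and 2 negative, with a median difference of 0.73 beside -0.15 over all probe sets. The fast myosin Myh4 stood at 0.96 ± 0.33 in that comparison (adjusted p = 0.159) and had r = 0.65 with the Gapdh ratio.

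Alas1, the entry enzyme, had the widest member difference in diabetic against normal muscle, by which it was picked, but not in treated diabetic against treated normal muscle. Its probe set J03190_at read 5337.2, 6432.8, 4191.6, 3447.9 and 1355.5 in treated diabetic muscle, and 1522.7, 1829.6, 1230.8, 1886.3 and 2530.2 in diabetic muscle. The same probe set read 6154.4, 4980.5, 3272.5, 9598.5 and 2081.6 in treated normal muscle, and 6398.2, 7270.9, 6072.8, 13674.7 and 11249.6 in normal muscle. All 5 diabetic arrays lay under all 5 normal arrays, and each treated group overlapped both of them.

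The companion probe set J03190_g_at read 4061.9, 4950, 3076.6, 3219.5 and 6295.1 in treated diabetic muscle, and 1441.9, 1383, 1155.9, 1908.1 and 2972.2 in diabetic muscle. It read 6257, 4951.3, 4284.2, 5931.9 and 2561.1 in treated normal muscle, and 6148.2, 4905.5, 4932, 8381.3 and 5479.8 in normal muscle. Again the diabetic arrays were the low group, and here no diabetic array reached the lowest treated diabetic one. The probe sets disagreed on 1 array: treated diabetic replicate 5 was the lowest of its group by J03190_at and the highest by J03190_g_at. Across the 20 arrays they correlated with r = 0.78, and with r = 0.42 once group means were removed; these points share the array and its scaling.

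**Figure D1:**
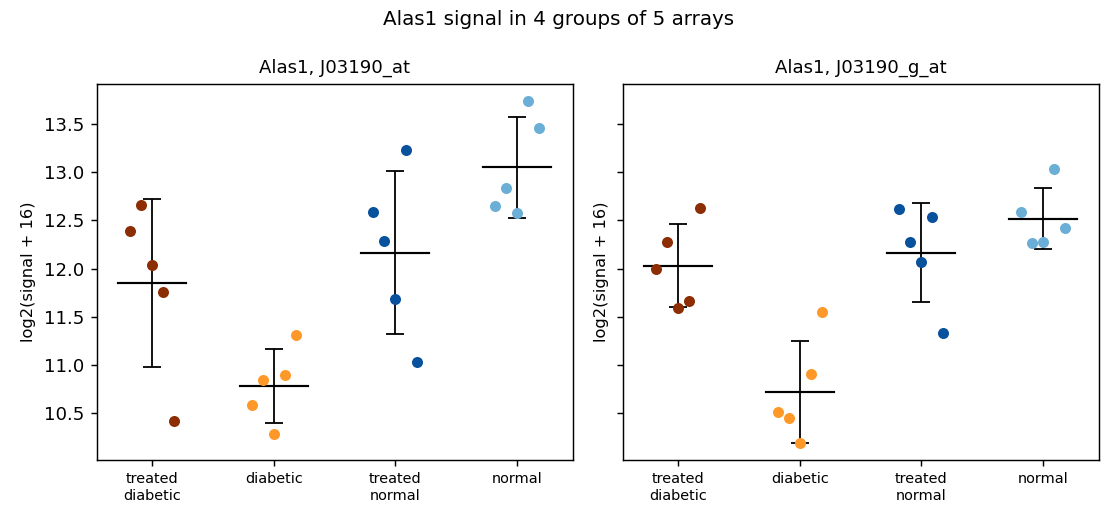
Each point is 1 array of rat muscle and gives the log2(signal + 16) of an Alas1 probe set, with J03190_at on the left and J03190_g_at on the right. Horizontal lines are group means and bars are the SD (n = 5 each). The diabetic group sits lowest in both panels, with means of 10.79 and 10.72, and treated diabetic replicate 5 stands low on the left and high on the right.

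The promoter of Alas1 is shown because a known regulator of this gene, nuclear respiratory factor 1, acts there in rat. The 300 bases run 5' to 3' from 250 before to 50 after the annotated start at chr8:115768593-115768892 on the minus strand of GRCr8, from RefSeq. Capitals mark matches to the NRF-1 motif, which is GCGCA, any 1 base and GCGC, searched on both strands. The matches start 31 and 2 bases before the start site.
Alas1: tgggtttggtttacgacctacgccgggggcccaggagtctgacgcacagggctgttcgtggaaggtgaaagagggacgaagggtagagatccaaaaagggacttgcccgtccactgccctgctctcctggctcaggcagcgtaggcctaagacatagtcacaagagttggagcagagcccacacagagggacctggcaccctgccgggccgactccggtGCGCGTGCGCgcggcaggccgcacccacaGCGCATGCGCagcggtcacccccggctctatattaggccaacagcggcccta
Of 33469 promoter windows of the same length, 4.25% hold at least 1 match. A match is a run of letters and not evidence of binding. Windows were matched for 6 of the 7 genes, and those of the other 5 held 0 matches. The windows of Alas2 and Blvra and a window of Hmox2 lie inside the annotated gene. They may not hold the main promoter, so the lack of a match there says little.

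In diabetic against normal muscle, the contrast by which Alas1 was picked, the log2 difference was -2.26 ± 0.42 (SE, n = 5 per group) for J03190_at and -1.80 ± 0.30 for J03190_g_at. These are 4.80-fold and 3.47-fold lower signals. The diabetic arrays lay wholly under the normal ones for both probe sets and for Alad, which makes 3 of 10 members, where 1.76% of all tested probe sets did so. At the adjusted threshold 1.83% of all tested probe sets passed in this contrast.

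Treated diabetic against treated normal muscle compares diabetes on 10 arrays that the choice of Alas1 did not use. There the log2 difference was -0.31 ± 0.42 for J03190_at (95% interval -1.18 to 0.55, adjusted p = 0.734) and -0.14 ± 0.30 for J03190_g_at (-0.76 to 0.48, adjusted p = 0.848). The intervals allow a difference in either direction, and leaving out 1 array moved the J03190_at value between -0.60 (without treated normal replicate 5) and 0.044 (without treated diabetic replicate 5). Of all 6027 probe sets, 0 (0%) passed the adjusted threshold by limma here, while 1076 (17.9%) had an unadjusted p under 0.05.

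Treated against untreated diabetic muscle shares the low diabetic arrays with the contrast by which Alas1 was picked, so its values are not independent of that choice. Alas1 signal was 2.48-fold higher by J03190_g_at (log2 difference 1.31 ± 0.30, 95% interval 0.69 to 1.93, adjusted p = 0.0534) and 2.09-fold higher by J03190_at (1.07 ± 0.42, 0.20 to 1.93, adjusted p = 0.230). Neither passed the threshold, which 0.498% of all probe sets did. The treated and untreated diabetic arrays did not overlap for J03190_g_at, and 2.37% of all probe sets were likewise wholly higher in the treated group. The adjusted p of J03190_g_at ran from 0.0142 to 0.191 over 26 other settings and was under the threshold in 6 of them, among them the fit without diabetic replicate 5, the highest diabetic array (log2 difference 1.51, adjusted p = 0.0142). It also passed without normal replicate 3 or 4 or treated normal replicate 5, at adjusted p = 0.0439, 0.0491 and 0.0376. For J03190_at the difference was 1.42 without treated diabetic replicate 5 (adjusted p = 0.107).

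Vanadyl sulfate in normal rats gave Alas1 differences of -0.88 ± 0.42 (J03190_at, adjusted p = 0.534) and -0.35 ± 0.30 (J03190_g_at, adjusted p = 0.720), which share the normal arrays with the picking contrast. The second value was -0.14 without treated normal replicate 5 and -0.22 without normal replicate 4. The interaction, which subtracts the treatment difference of normal rats from that of diabetic rats, contains the whole picking contrast, so its p is not independent of the choice of Alas1. It was 1.95 ± 0.59 (adjusted p = 0.157) and 1.66 ± 0.42 (adjusted p = 0.119). Neither passed, and only leaving out diabetic replicate 5 brought the second value under the threshold (1.86, adjusted p = 0.0498). Of all probe sets, 0.0664% passed for treatment in normal rats and 0.166% for the interaction.

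Macrophage and leukocyte markers moved opposite to Alas1. The summed signal of 11 macrophage and leukocyte markers was 11857 to 25181.4 in treated diabetic, 25570.7 to 102242.5 in diabetic, 16649.6 to 24664.1 in treated normal and 12320.5 to 18593.8 in normal muscle. The sum leans on the brightest markers. The score, a mean of log2 deviations, was -0.38 to 0.70 in treated diabetic and 0.48 to 2.27 in diabetic muscle, so by it these groups overlapped. Over the 20 arrays, the score of these markers had r = -0.64 with J03190_at and -0.81 with J03190_g_at. Within the diabetic group, replicates 1 to 5 had sums of 102242.5, 35755.4, 98785.6, 36225.4 and 25570.7 beside J03190_g_at signals of 1441.9, 1383, 1155.9, 1908.1 and 2972.2. Replicate 5 had the lowest sum and the highest Alas1 signal. Replicate 2, with a far lower sum than replicate 1, read lower than it by J03190_g_at but higher by J03190_at (1829.6 against 1522.7). In a bulk sample, fewer cells of a type and less RNA per cell cannot be told apart, and the part of these markers in the Alas1 values was not tested.

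By the same markers, 2 of 11 fell in treated against untreated diabetic muscle, 0 rose and 9 did not pass. Lyz2, the lysozyme of macrophages, fell by 2.28 (adjusted p = 0.0219), and the Fc receptor Fcgr2b fell by 1.32 (adjusted p = 0.0335). Of 5 tested adipocyte markers, the lipid droplet gene Cidea fell by 2.29 (adjusted p = 0.00299) in that comparison and the other 4 did not pass. The summed adipocyte signal was 22985.1 to 34465 in treated diabetic, 32106.7 to 52595.4 in diabetic, 18801.1 to 24530.4 in treated normal and 14788.5 to 26381.4 in normal muscle. In diabetic against normal muscle, 5 of the 11 macrophage and 3 of the 5 adipocyte markers rose and 0 fell. Fcgr2b and Cidea also passed for the interaction, at -2.16 (adjusted p = 0.0315) and -2.39 (adjusted p = 0.0442).

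The genes whose pattern over the 20 arrays was most like Alas1 (J03190_at), among 4938 other named probe sets, were Slc41a3, a magnesium transporter (r = 0.87), Mdh2, the mitochondrial malate dehydrogenase (r = 0.86), Ckmt2, the sarcomeric mitochondrial creatine kinase (r = 0.86), Slc16a3, a lactate transporter (r = 0.84), and Coq3, an enzyme of ubiquinone synthesis (r = 0.82). With group means removed, these r were 0.74, 0.66, 0.81, 0.79 and 0.54 in the same order. All share libraries and scaling with Alas1. Ckmt2 had a median signal of 31330.7 in treated diabetic, 12773.3 in diabetic, 20703.9 in treated normal and 35706 in normal muscle, so its diabetic median was the lowest.

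Alad, which joins a pair of the ALAS product molecules into porphobilinogen, was the other member whose diabetic and normal arrays did not overlap. It read 2543.5, 1846.4, 2143.5, 1430.6 and 928.9 in treated diabetic muscle, and 1778.1, 2028.6, 1503.3, 1958.6 and 1235.9 in diabetic muscle. It read 2052.4, 1470.9, 1444.2, 1920.4 and 1167.2 in treated normal muscle, and 2358.8, 2336.7, 2272.1, 3248 and 2368 in normal muscle. The normal arrays lay above all diabetic and all treated normal ones, and treated diabetic replicate 1 alone of its group reached them.

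The diabetic against normal difference of Alad was -0.57 ± 0.26, given as a description. In treated against untreated normal rats it was -0.65 ± 0.26 (95% interval -1.19 to -0.12, adjusted p = 0.493), and all 5 treated arrays lay under all 5 untreated ones, as did 0.531% of all probe sets. In treated against untreated diabetic rats the difference was 0.0061 ± 0.26 (-0.53 to 0.55, adjusted p = 0.993), and against treated normal muscle 0.090 ± 0.26 (adjusted p = 0.889). The interaction was 0.66 ± 0.37 (adjusted p = 0.451), which did not pass.

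The Alad promoter window is printed because Alad is the other synthesis gene whose groups separated. It spans chr5:80987852-80988151 on the minus strand of GRCr8, from RefSeq, and capitals mark the GC box GGGCGG, a motif bound by Sp1-type factors, on either strand.
Alad: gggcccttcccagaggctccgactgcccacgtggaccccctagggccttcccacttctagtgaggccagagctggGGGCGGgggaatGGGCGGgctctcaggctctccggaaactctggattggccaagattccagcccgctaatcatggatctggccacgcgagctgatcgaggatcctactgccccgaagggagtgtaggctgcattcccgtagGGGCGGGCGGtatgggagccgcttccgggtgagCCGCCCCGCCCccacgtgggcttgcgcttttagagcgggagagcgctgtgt
It holds 6 matches, some overlapping, and 33.1% of the 33469 windows hold at least 1. The Urod window held 3 GC boxes and that of Alas1 0.

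Alas2, the erythroid enzyme, did not separate the groups. It read 952.6, 945.5, 661.7, 1207.6 and 1203.4 in treated diabetic muscle, and 697.3, 906.6, 654, 1029.4 and 874.8 in diabetic muscle. It read 1313.7, 863.2, 949.6, 226.7 and 350.7 in treated normal muscle, and 590, 1090.2, 1232.9, 1175.3 and 706.6 in normal muscle. Treated normal replicates 4 and 5 were the lowest of all 20 arrays, and their group had an SD of 1.03 on the log2 scale, against 0.27 to 0.47 in the other 3 groups.

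The treated diabetic against treated normal difference of Alas2 was 0.65 ± 0.38 (95% interval -0.14 to 1.43, adjusted p = 0.371), and 0.30 without treated normal replicate 4, the lowest array. Alas2 stood at -0.57 ± 0.38 in treated against untreated normal rats (adjusted p = 0.631), which became -0.22 without treated normal replicate 4 and -0.37 without replicate 5, and at 0.24 ± 0.38 in treated against untreated diabetic rats (adjusted p = 0.777). In diabetic against normal muscle its difference was -0.16.

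Red cell markers were measured alongside. Of 7 erythroid markers tested, 0 passed by limma in any comparison, and 1 had an unadjusted p under 0.05 in treated against untreated normal muscle. Their summed signal was 32029.4 to 73535.4 in treated diabetic, 28523.5 to 58654.8 in diabetic, 7056.2 to 61670.5 in treated normal and 30085.7 to 89819.5 in normal muscle. The lowest sum was in treated normal replicate 5, where Alas2 read 350.7, but replicate 4, where Alas2 read 226.7, had a sum of 29425.7. Alas2 correlated with the beta-globin genes Hbb (r = 0.58) and Hbb-b1 (r = 0.61) over the 20 arrays; these near-identical globin genes may share probe signal. The genes most like it were Ccnd1, the cell cycle gene cyclin D1 (r = 0.76), Thra, a thyroid hormone receptor (0.71), Golga1, a Golgi protein (0.68), Kdr, the endothelial VEGF receptor (0.67), and Ndufc1, a respiratory complex I subunit (0.66). The part of blood in the Alas2 values was not tested.

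Urod, which trims the side chains of the heme precursor, had nearly the same level in every group. Its signal ran from 3855.6 to 5158 (median 4170.2) in treated diabetic, 3589.9 to 5151.7 (4347) in diabetic, 3424.8 to 5603.3 (4164.7) in treated normal and 3245.1 to 6941.6 (5238.9) in normal muscle. All 4 groups overlapped. The differences were 0.05 ± 0.22 for treated diabetic against treated normal, -0.0082 ± 0.22 for treated against untreated diabetic, and -0.26 ± 0.22 for treated against untreated normal muscle (adjusted p = 0.927, 0.990 and 0.715). The widest of these intervals from 0 was -0.71 to 0.19.

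**Figure D2:**
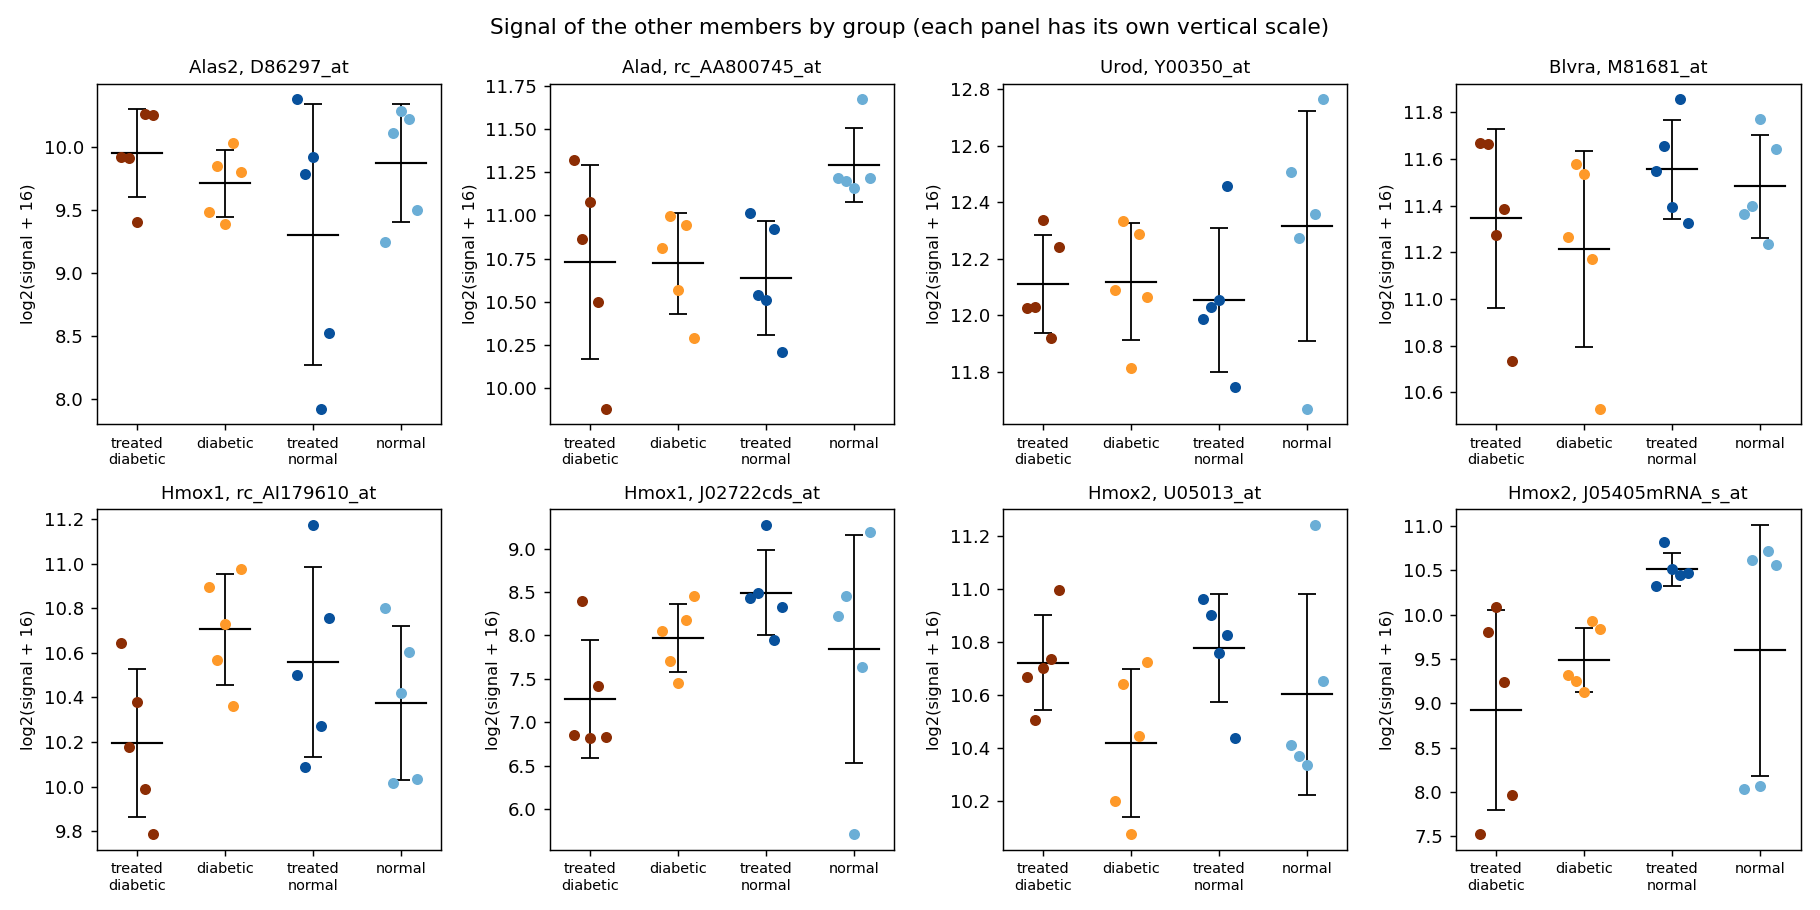
The 8 panels show the remaining member probe sets, with 1 point per array as log2(signal + 16), a line at the group mean and bars for the SD (n = 5 each). Each panel has its own vertical scale. The normal mean is the highest for Alad, treated normal replicates 4 and 5 sit low for Alas2, and the treated diabetic and treated normal arrays do not overlap for Hmox2 J05405mRNA_s_at.

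On the breakdown side, Hmox1, the inducible heme oxygenase, read 1584.1, 1142.6, 1317.5, 1000.2 and 866.6 in treated diabetic muscle by rc_AI179610_at, and 1887.8, 1500.2, 1682.2, 1300.7 and 1997.8 in diabetic muscle. It read 1431.8, 1072.7, 2296.6, 1220.3 and 1714.6 in treated normal muscle, and 1767.5, 1020.5, 1352.1, 1540 and 1033.3 in normal muscle. The treated diabetic group had the lowest median and the diabetic group the highest, with overlap between them.

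Hmox1 differed by -0.51 ± 0.25 between treated and untreated diabetic muscle (95% interval -1.02 to 0.0027, adjusted p = 0.309), by -0.36 ± 0.25 between treated diabetic and treated normal muscle (adjusted p = 0.447; -0.21 without treated normal replicate 3 and -0.13 with quantile normalization) and by 0.18 ± 0.25 between treated and untreated normal muscle (adjusted p = 0.840). The interaction was -0.69 ± 0.35 (adjusted p = 0.401). None of these passed the threshold. In diabetic against normal muscle the value was 0.33.

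The other Hmox1 probe set, J02722cds_at, lay above the 40th percentile of its array on 9 of 20 arrays and is dim. It ran from 97.2 to 319.7 (median 100) in treated diabetic, 159.6 to 333.2 (249.2) in diabetic, 230.5 to 602.5 (327.7) in treated normal and 36.3 to 568.2 (282.2) in normal muscle. Its differences were -1.23 ± 0.48 for treated diabetic against treated normal (adjusted p = 0.203) and -0.70 ± 0.48 for treated against untreated diabetic muscle (adjusted p = 0.474). Both probe sets thus gave negative values in these comparisons, but across arrays they correlated with r = 0.19 only. J02722cds_at had r = -0.63 with the Gapdh 3'/5' ratio. In the fit that includes the 3'/5' ratios of Gapdh and actin, its differences were -0.80 (adjusted p = 0.646) and -0.36 (adjusted p = 0.738). It had r = -0.82 with the score of the 11 skeletal muscle markers, whose summed signal was 1059408.8 to 2069680.6 in treated diabetic, 763457.2 to 1131868.1 in diabetic, 661604.8 to 1036998.3 in treated normal and 798391.4 to 3517001.9 in normal muscle. The treated diabetic sums thus lay above all treated normal sums, and their part in the Hmox1 value was not tested.

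Macrophages, which take up red cells, make HMOX1 in abundance, so their markers are given beside it. The macrophage score had r = 0.46 with rc_AI179610_at over the 20 arrays. Diabetic replicate 5, with the highest Hmox1 signal of its group (1997.8), had the lowest macrophage sum of it (25570.7), and the highest Hmox1 signal of all was in treated normal replicate 3 (2296.6; sum 24664.1). The genes most like Hmox1 were Ctps2, a CTP synthase (r = 0.69), C1qb, a complement chain made by macrophages (0.69), Dab2, an endocytic adaptor (0.68), Ninj1, a surface protein (0.66), and Cyb5r3, a cytochrome b5 reductase (0.66). The part of macrophages in the Hmox1 values was not tested.

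Hmox2, the constitutive oxygenase, gave different pictures by its probe sets. By U05013_at it read 1611.4, 1437.1, 1648.7, 1691 and 2028.6 in treated diabetic muscle, and 1161.9, 1581.5, 1063.1, 1378.4 and 1678 in diabetic muscle. It read 1978.5, 1894.6, 1715.8, 1801.6 and 1372.1 in treated normal muscle, and 1346.3, 1308.7, 1277.1, 2404.6 and 1595.9 in normal muscle. The 4 groups overlapped. The differences of this probe set were -0.06 ± 0.21 for treated diabetic against treated normal (95% interval -0.50 to 0.39, adjusted p = 0.925) and 0.30 ± 0.21 for treated against untreated diabetic muscle (adjusted p = 0.491).

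By J05405mRNA_s_at, Hmox2 read 168, 877, 1073.8, 590.4 and 234.7 in treated diabetic muscle, and 624.7, 594.5, 544, 955.8 and 896.4 in diabetic muscle. The values were 1259.1, 1784.5, 1446.8, 1377.1 and 1397.8 in treated normal muscle, and 246.8, 1555.5, 251.3, 1661.7 and 1489.4 in normal muscle. Every treated diabetic array lay under every treated normal one, a separation that 2.01% of all probe sets showed in that direction. The normal arrays formed a low pair, replicates 1 and 3, and a high group of 3. The difference between treated diabetic and treated normal muscle was -1.58 ± 0.55, or 3.00-fold lower (95% interval -2.72 to -0.45, adjusted p = 0.164).

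The J05405mRNA_s_at signal moved with RNA integrity. It had r = -0.87 with the Gapdh 3'/5' ratio over the 20 arrays and -0.89 with group means removed, whereas U05013_at had r = -0.23. With the skeletal muscle score J05405mRNA_s_at had r = -0.54, and with the macrophage score U05013_at had r = -0.61; their part in the Hmox2 values was not tested. With both 3'/5' ratios as covariates, the J05405mRNA_s_at difference between treated diabetic and treated normal muscle was -0.65 (adjusted p = 0.576), and -1.23 in a fit that left out treated diabetic replicate 1 and normal replicates 1 and 3 (adjusted p = 0.134). Treated against untreated normal muscle stood at 0.91 ± 0.55 (adjusted p = 0.609), at -0.12 without those arrays and at 0.21 with the covariates.

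**Figure D3:**
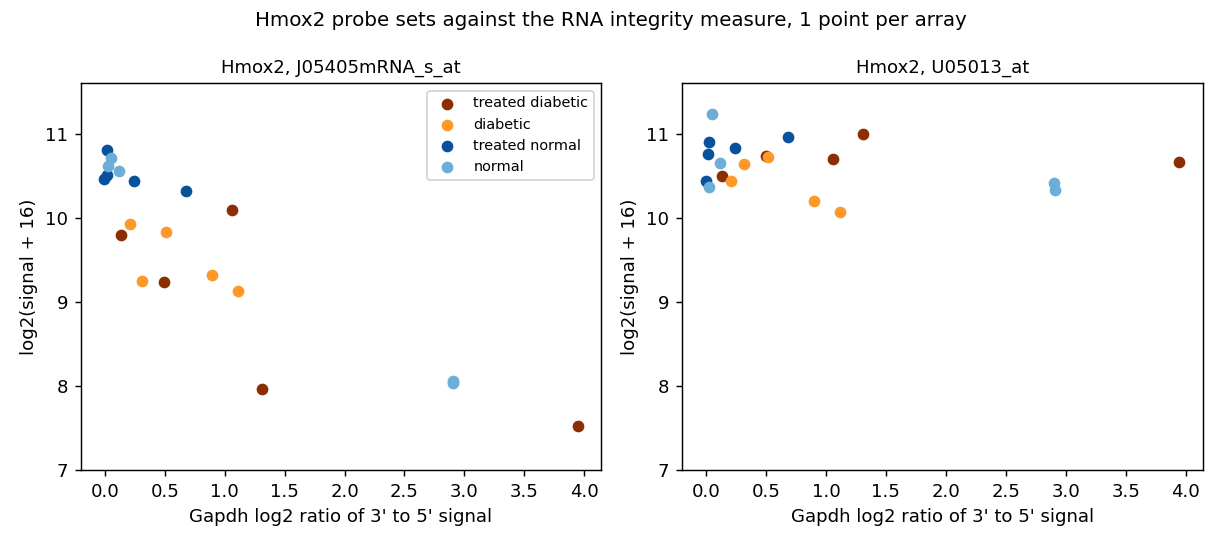
Each point is 1 array, with the log2 3'/5' ratio of Gapdh across and the log2(signal + 16) of a Hmox2 probe set upward, coloured by group. J05405mRNA_s_at is lower at higher ratios (r = -0.87), with treated diabetic replicate 1 and normal replicates 1 and 3 at the low right, and U05013_at does so less (r = -0.23).

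Blvra, biliverdin reductase A, closed the pathway with overlapping groups. Its signal ran from 1688.1 to 3239.8 (median 2660.4) in treated diabetic, 1462.3 to 3038.7 (2444.9) in diabetic, 2552.8 to 3692 (2982.7) in treated normal and 2394.3 to 3477.4 (2682) in normal muscle. Replicate 5 was the lowest of both diabetic groups. The differences were -0.21 ± 0.24, 0.13 ± 0.24 and 0.07 ± 0.24 for treated diabetic against treated normal, treated against untreated diabetic, and treated against untreated normal muscle (adjusted p = 0.677, 0.809 and 0.940).

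Across the members, 0 of 10 probe sets passed the threshold in any of the 4 comparisons tested for them. The lowest adjusted p was 0.164 for treated diabetic against treated normal, 0.0534 for treated against untreated diabetic, 0.493 for treated against untreated normal, and 0.119 for the interaction. At an unadjusted p under 0.05 there were 2 of 10 members in each of these comparisons, beside 17.9%, 16.3%, 9.23% and 13.3% of all probe sets. The members' median log2 difference was -0.17, 0.07, -0.09 and 0.19 in the same order, beside -0.15, 0.08, 0.18 and -0.13 over all 6027 probe sets. The members with an unadjusted p under 0.05 were Hmox1 J02722cds_at and Hmox2 J05405mRNA_s_at in treated diabetic against treated normal muscle. They were Alas1 J03190_at and Alad in treated against untreated normal muscle. In treated against untreated diabetic muscle and in the interaction, they were the probe sets of Alas1 alone. Only the first of these comparisons shares no arrays with the contrast by which Alas1 was picked. Among pairs of members, Alas1 (J03190_at) and Alad had r = 0.69 over the 20 arrays and 0.72 with group means removed, but J03190_g_at and Alad had r = 0.26 and 0.0017.

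**Figure D4:**
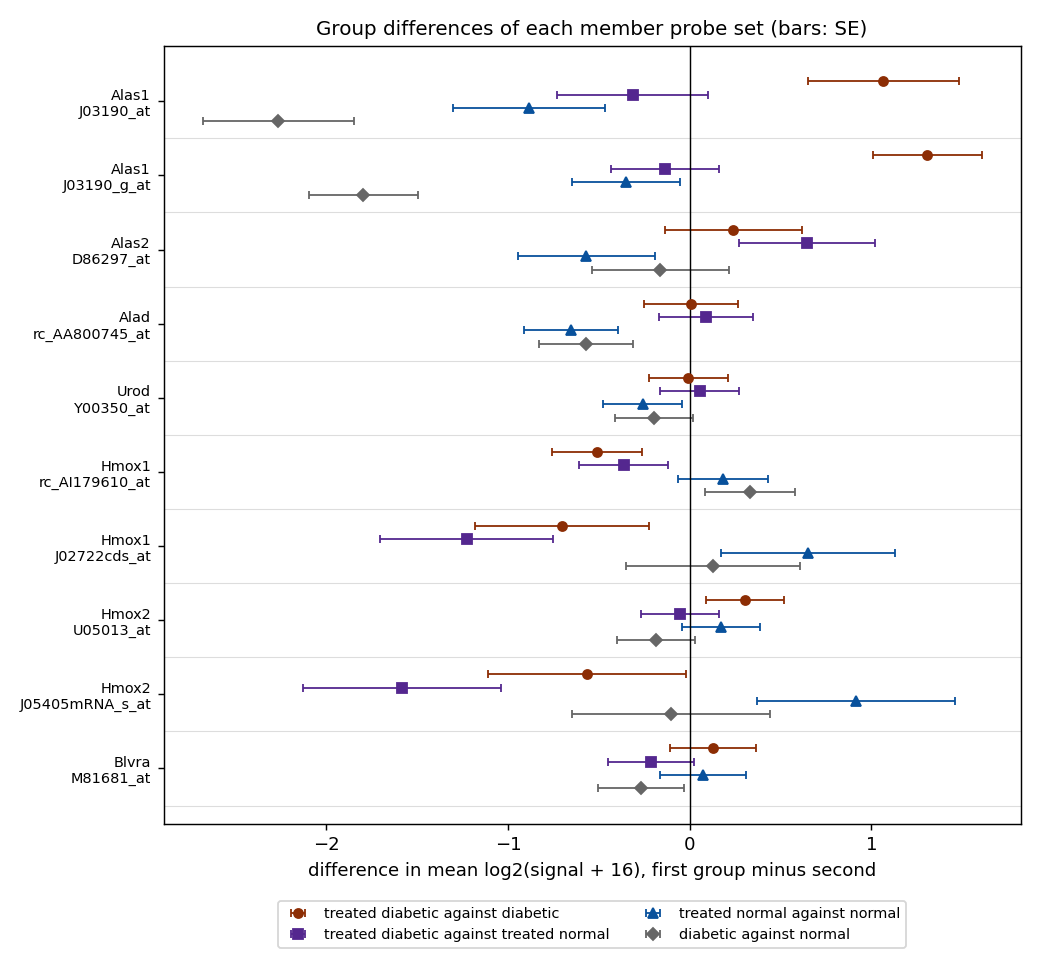
For each member probe set, points give the group difference in mean log2(signal + 16) with its SE as a bar, in 4 comparisons of 5 arrays against 5. Alas1 lies at -2.26 and -1.80 in diabetic against normal muscle and at 1.07 and 1.31 in treated against untreated diabetic muscle, while Urod and Blvra stay within 0.27 of 0 in all 4.

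Other genes of heme synthesis and heme transport were few on the array, with 3 of 20 listed genes measured: Ppox, which oxidises the precursor before iron is inserted, Abcb6, a porphyrin transporter, and Pgrmc1, a heme-binding membrane protein. Of these 3, 0 passed by limma in either direction in any tested comparison, and at an unadjusted p under 0.05 there was 1 in treated against untreated diabetic muscle and 0 in the others. Abcb6 signal was 2591.5 to 4728.6 in treated diabetic muscle, wholly above the 1896.8 to 2440.8 of diabetic muscle (0.67 ± 0.27, adjusted p = 0.238). Of all probe sets, 2.37% were likewise wholly higher. The range of Abcb6 was 1887.3 to 5350.2 in treated normal and 2282.7 to 4580.2 in normal muscle. Abcb6 had r = 0.51 with the Gapdh 3'/5' ratio. Ppox differed by -0.08 between treated diabetic and treated normal muscle (adjusted p = 0.882).

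Of 6 tested genes (7 on the array) for heme scavenging, bilirubin and iron, 0 passed by limma, with 0 to 2 per comparison at an unadjusted p under 0.05. The transferrin receptor Tfrc, which brings in iron, read 74.9, 2763.9, 171.3, 151.3 and 17.5 in treated diabetic muscle and 135.1, 161.2, 130, 353.9 and 181.6 in diabetic muscle. It read 1867.3, 1692.5, 1435.2, 3476 and 623.7 in treated normal muscle and 853.2, 7396.4, 327.6, 1494.8 and 2007.6 in normal muscle. With the exception of treated diabetic replicate 2, the arrays of treated diabetic rats lay under those of treated normal rats. The difference was -3.05 ± 0.88 (adjusted p = 0.141), and treated against untreated diabetic muscle gave -0.02 ± 0.88 (adjusted p = 0.993). Apart from treated diabetic replicate 2 and diabetic replicate 4, Tfrc read under the array's 40th percentile in both diabetic groups. That percentile was 279.82 to 323.64 on treated diabetic and 234.94 to 303.76 on diabetic arrays, so the size of these differences rests on dim signals.

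Ireb2, the iron regulatory protein that stabilises Tfrc messenger RNA, ran from 70.4 to 340.3 (median 96.6) in treated diabetic, 190.8 to 536.1 (292.3) in diabetic, 369.4 to 1298.6 (747) in treated normal and 47 to 1901.6 (382.5) in normal muscle. Treated diabetic arrays were all under treated normal arrays, as were 2.01% of all probe sets, with a difference of -2.29 ± 0.64 (adjusted p = 0.141). Tfrc and Ireb2 were named for their small p in this comparison, so their values there are not independent of that choice. In treated diabetic replicates 1, 3 and 5, Ireb2 read 74.7, 96.6 and 70.4, under the 40th percentile of each array. The size of its difference thus also rests on dim signals. Both genes moved with RNA integrity, since Ireb2 had r = -0.73 and Tfrc r = -0.46 with the Gapdh 3'/5' ratio, and the part of integrity in these differences was not tested.

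Of 9 tested regulators of Alas1 or Hmox1 (10 on the array), 0 passed by limma, with 1 to 3 per comparison at an unadjusted p under 0.05. Esrra, a nuclear receptor that drives mitochondrial genes with PGC-1 coactivators, read 5187.2, 4506.5, 7164.2, 4854.7 and 5482.8 in treated diabetic muscle and 3504.2, 2914.9, 3332.7, 3277.7 and 3900 in diabetic muscle. Esrra read 3718.8, 3805.1, 3232.5, 4223.3 and 2574.9 in treated normal muscle and 4212.9, 4219.4, 4457.8, 5488.2 and 5054.7 in normal muscle. The treated diabetic arrays lay above all diabetic arrays, as did 2.37% of all probe sets. Esrra was named for its small p against treated normal muscle, so its difference there is not independent of that choice. Its differences were 0.67 ± 0.19 against diabetic muscle (adjusted p = 0.122) and 0.63 ± 0.19 against treated normal muscle (adjusted p = 0.141), and the interaction was 1.10 ± 0.28 (adjusted p = 0.119). Nr1d2, a heme-binding nuclear receptor of the circadian clock, differed by -0.98 ± 0.35 between treated diabetic and treated normal muscle (adjusted p = 0.178).

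**Figure D5:**
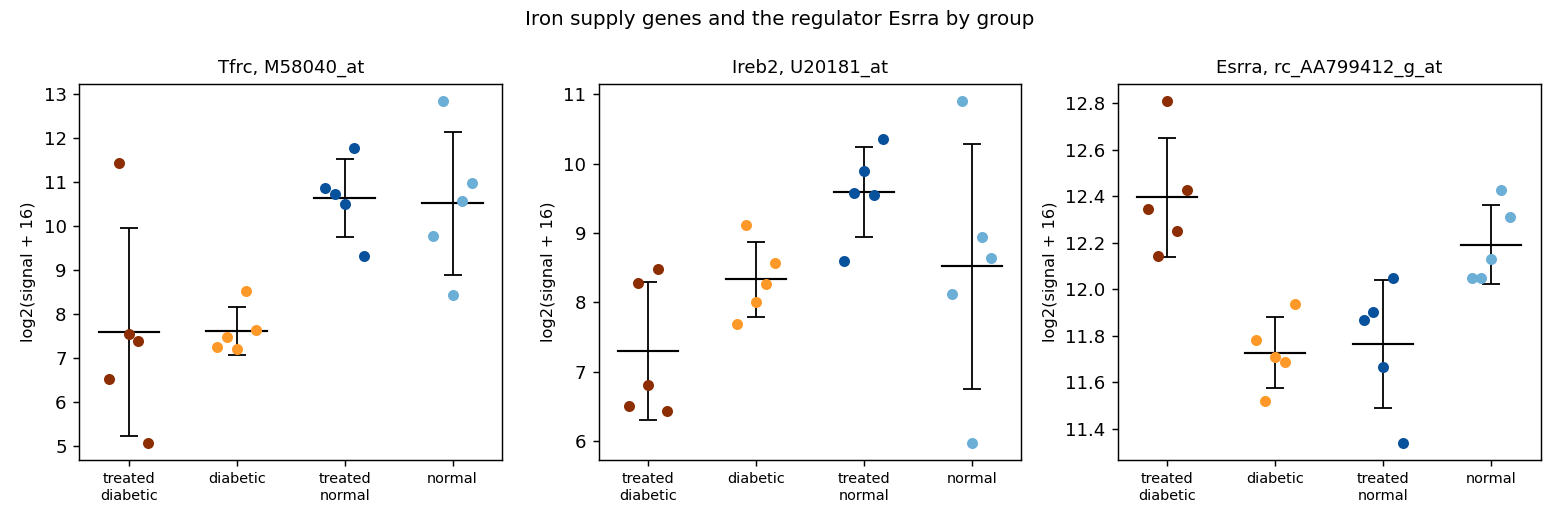
Points are arrays, as log2(signal + 16), for Tfrc, Ireb2 and Esrra, with lines at group means and bars for the SD (n = 5 each). Treated diabetic arrays other than 1 sit low for Tfrc. For Ireb2 all of them lie under the treated normal arrays, as did 2.01% of all probe sets. The treated diabetic mean is the highest for Esrra.

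Of 28 listed genes for proteins that use heme, 18 were on the array and 17 were tested, and 0 passed by limma in the 4 comparisons other than diabetic against normal, with 2 to 6 at an unadjusted p under 0.05. Cyb5b, a cytochrome b5 of the outer mitochondrial membrane, ran from 865 to 1164 in treated diabetic muscle, wholly under the 1349.3 to 2258.1 of treated normal muscle (-0.72 ± 0.19, adjusted p = 0.141). Cyb5b was named for its small p in this comparison, where 2.01% of all probe sets were wholly lower. The inducible nitric oxide synthase Nos2 differed by 1.31 ± 0.47 (adjusted p = 0.178) in that comparison, with a range of 675.6 to 2253.2 in treated diabetic muscle against 235.9 to 895.2 in treated normal muscle. Nos2 had r = 0.52 with the Gapdh 3'/5' ratio, whose part in this difference was not tested. The list's median difference was -0.11 there, beside -0.15 over all probe sets. In diabetic against normal muscle 1 of the 17 genes passed, beside 1.83% of all probe sets. It was cytochrome c1 of the respiratory chain, Cyc1, named after its values were seen (-1.09 ± 0.27, adjusted p = 0.0433). Cyc1 stood at 0.77 ± 0.27 in treated against untreated diabetic muscle (adjusted p = 0.181). That comparison shares the diabetic arrays by which Cyc1 was named, so this value is not independent of the choice.

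Of 7 tested genes (8 on the array) of the oxidative stress response that the factor NRF2 drives together with Hmox1, 0 passed by limma, with 1 or 2 per comparison at an unadjusted p under 0.05. Gsr, glutathione reductase, differed by -1.50 ± 0.61 (adjusted p = 0.215) and Gstp1, a glutathione transferase, by -0.39 ± 0.25 (adjusted p = 0.430) between treated diabetic and treated normal muscle. The 7 genes had a median difference of -0.28 in treated against untreated diabetic muscle, beside 0.08 over all probe sets, with 6 negative and 1 positive. In treated diabetic against treated normal muscle 5 were negative and 2 positive. All 7 were positive in treated against untreated normal muscle (median 0.16, beside 0.18 over all probe sets). All 7 were also positive in diabetic against normal muscle (0.45, beside -0.06), which shares the diabetic arrays with the first of these comparisons. Gsr had r = -0.58 with the Gapdh 3'/5' ratio.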

How the data were processed

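The 20 arrays were analysed from the deposited table of signal intensity values, which per the submitters' processing notes the authors made with MAS5 (the sources used here give no version). The intensity after trimming 2% at each end averaged 2503.4 to 2506.46 per array, so the authors' scaling was kept. The 59 control probe sets of 8799 were left out, and 6027 passed the filter. Log2(signal + 16) was fitted with limma 3.58.1 (R 4.3.3; lmFit and eBayes) over 4 groups, and 5 comparisons were tested two-sided over all probe sets (diabetic against normal not for the heme genes), with Benjamini-Hochberg adjustment per comparison. No detection calls were used. With 5 arrays per group, their number limits the precision.

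Genes were named from the platform annotation, which can be old; 7018 probe sets had 1 symbol. The genes, lists and tests were chosen with earlier results of these data known. Named list genes were those past the threshold in a tested comparison, otherwise the 2 with the smallest p in treated diabetic against treated normal muscle, from the probe set of highest mean signal; the 5 most correlated genes were named for Alas1, Alas2 and Hmox1. Marker scores are mean log2 deviations from the normal group. The skeletal muscle, erythroid, macrophage and adipocyte lists came from textbook markers. Motif matches were counted in RefSeq windows of GRCr8, the build of the array not being stated. Scripts were tested on simulated data. Alternatives were another pseudocount, no filter, quantile normalization, 3'/5' ratios as covariates, a replicate block, and leaving out arrays.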

Additional observations from a re-analysis of the deposited data

Results flagged for a closer look

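In normal muscle, Alad read 3248 in replicate 4, where the other 4 arrays lay between 2272.1 and 2368, so this sample stood far from its group. On the log2(signal + 16) scale its gap to the nearest array was 0.884 of the group's range, against a critical value of 0.71 for 5 samples. It was the 1 sample found among 40 groups of 5 arrays (10 probe sets in 4 groups), where chance alone picks out about 1 group in 20. Without it, the treated against untreated normal difference of Alad was -0.56 (limma adjusted p = 0.493).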

How the results depend on the processing

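In the 4 comparisons tested for the members, 995 values kept their direction and their side of the threshold over the 26 alternatives per comparison. In diabetic against normal muscle, where the members had no test, 259 moved by less than the SD between replicates. Alas1 J03190_g_at passed in treated against untreated diabetic muscle with a pseudocount of 64 (1.28, adjusted p = 0.0462) and with quantile normalization (1.35, adjusted p = 0.0492); its other crossings, by leaving out an array, are given with its result. The Hmox2 J05405mRNA_s_at difference between diabetic and normal muscle was -1.14 without the 3 arrays of high Gapdh ratio, against -0.10 with them.

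The 38 tested values that changed sign had not passed the threshold. With quantile normalization, treated diabetic against treated normal gave 0.059 for Alas1 J03190_g_at, 0.011 for Blvra and 0.18 for Hmox2 U05013_at, treated against untreated normal gave -0.078 for Blvra and -0.010 for Hmox2 U05013_at, and treated against untreated diabetic gave 0.10 for Urod. With both 3'/5' ratios as covariates, the Blvra interaction was -0.11, Alad and Urod stood at -0.066 and 0.053 in treated against untreated diabetic muscle, and Hmox2 U05013_at at 0.036 in treated diabetic against treated normal muscle. Without the 3 arrays of high Gapdh ratio, the Blvra interaction was -0.082, Alad stood at -0.058 against treated normal and -0.14 against diabetic muscle, Urod at 0.013 against diabetic muscle, and Hmox2 J05405mRNA_s_at at -0.12 in treated against untreated normal muscle.

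Leaving out 1 array at a time, treated diabetic against treated normal ran from -0.60 to 0.044 for Alas1 J03190_at, from -0.058 to 0.30 for Alad and from -0.022 to 0.16 for Urod. Treated against untreated diabetic ran from -0.042 to 0.28 for Blvra, from -0.14 to 0.22 for Alad and from -0.084 to 0.046 for Urod. Blvra ran from -0.00062 to 0.15 in treated against untreated normal and from -0.12 to 0.21 for the interaction, and the Hmox2 U05013_at interaction from -0.030 to 0.21.

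Counts of all probe sets past the threshold moved more. Treated diabetic against treated normal had 0, 16 with the replicate block, 2 without the 3 arrays, and 0 to 153 with 1 array left out (153 without treated diabetic replicate 2). Treated against untreated diabetic had 30, 19 with no filter, and 9 to 59 with 1 array left out. Treated against untreated normal had 4, 0 with no filter, quantile normalization or the block, 2 without the 3 arrays, and 0 to 6 with 1 left out. The interaction had 10, 6 with the block, 1 with no filter, quantile normalization, covariates or without the 3 arrays, and 0 to 21 with 1 left out. Diabetic against normal had 110, 62 with no filter, 32 with covariates, 467 without the 3 arrays, and 23 to 258 with 1 left out. The cause of these shifts was not tested. Samples with the same number did not deviate together in every pair (r from -0.28 to 0.62). The Gapdh and actin 3'/5' ratios were both higher in replicate 1 than in replicate 2 in all 4 groups. The order of replicates 3 and 4 differed between groups. Whether samples with the same number shared a batch was not tested. The replicate block changed the call of 0 member probe sets.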
